A study of Mus musculus with 5 samples.

Results

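The genes described here were 10 genes of the cellular response to low oxygen and of sugar breakdown, taken as a named list out of 31053 genes listed for the 7-day and tissue samples and 32285 listed for the 11-day sample. The list held Adm, Vegfa, Ndrg1, Bnip3, Slc2a1, Hk2, Pfkfb3, Aldoa, Pgk1 and Ldha, and all 10 were found in every library. They were followed across 5 single-cell RNA-seq libraries of the mouse submandibular salivary gland, and within the organoid libraries they were compared between barcodes with and without a count of Adm. All animals were C57BL/6 mice, female per the study's methods, and the labels give an age of 8 to 12 weeks for every group but the 11-day one. A mouse salivary gland organoid (mSGO) is a cluster that dissociated gland cells form when embedded in the gel Matrigel. All mSGOs came from pools of 4 animals and grew at 20 ng/mL of EGF in the same medium, which also contained FGF2, N2, insulin, dexamethasone, the ROCK inhibitor Y27632 and conditioned media with R-spondin1 and Wnt3a. The groups were non-irradiated 7-day mSGOs (control), mSGOs given 7 Gy of photons on day 5 and collected on day 7, mSGOs given 7 Gy of protons on day 5 and collected on day 7, non-irradiated 11-day mSGOs, and freshly isolated, non-irradiated gland tissue. Other animals gave the 11-day mSGOs, and that library was run on its own. Each group had 1 library, so no difference could be tested, and the 95% intervals below cover counting error only.

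When oxygen falls, prolyl hydroxylases (the EGLN proteins) stop marking the HIF-1α and HIF-2α subunits for VHL-dependent degradation, and the stabilised subunits pair with ARNT and bind short DNA elements near their target genes. These targets include secreted signals that act on vessels, glucose transporters, nearly every enzyme of glycolysis, and genes of mitochondrial turnover. Many of the same genes also answer to other inputs, such as growth factors, glucocorticoids and the carbon source.

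The members lie on mouse chromosomes 2, 4, 6, 7, 15, 17 and X, and positions are given from the RefSeq annotation of GRCm38.p6. Adm (ENSMUSG00000030790), which encodes the peptide hormone adrenomedullin, lies at chr7:110627657-110629820. Vegfa (ENSMUSG00000023951), the gene of the vascular endothelial growth factor, lies at chr17:46016993-46032377. Slc2a1 (ENSMUSG00000028645), the gene of the glucose transporter GLUT1, lies at chr4:119108745-119137330. The glycolytic enzymes followed were Hk2 (ENSMUSG00000000628, chr6:82725025-82774454), which phosphorylates glucose, Pfkfb3 (ENSMUSG00000026773, chr2:11471430-11554071), which makes the activator of phosphofructokinase, and Aldoa (ENSMUSG00000030695, chr7:126795234-126800994), an aldolase. Further down the pathway were Pgk1 (ENSMUSG00000062070, chrX:106187100-106203699), a kinase that yields ATP, and Ldha (ENSMUSG00000063229, chr7:46842274-46855627), which turns pyruvate into lactate. Bnip3 (ENSMUSG00000078566, chr7:138890836-138909506) encodes a mitochondrial protein of mitophagy. Ndrg1 (ENSMUSG00000005125, chr15:66929318-66969641) encodes a cytoplasmic protein linked to stress and epithelial differentiation. All are protein-coding genes.

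HIF complexes bind the core letters ACGTG or GCGTG. The 250 bases before each start listed in a promoter table were searched for these letters on both strands. ACGTG overlaps its own reverse complement in CACGTG, which then counts as 2 matches. Of the 10 members 9 were in the promoter table used here (RefSeq, GRCm38.p6), and Ndrg1 was not. The first listed window held at least 1 match in 7 of these 9 (77.8%), against 38.6% of the first windows of 27018 genes, and at least 2 matches in 6 of 9 (66.7%) against 16.8%. The members' windows were also richer in G and C, with a median of 66.4% against 52%. Among the 7445 windows of all genes with at least 60% G or C, 64.2% held a match and 34.0% held 2 or more. The first windows of Vegfa and Aldoa held none of these letters, which says nothing of sites elsewhere. A listed start can lie within the gene: the first windows of Ldha and Aldoa lie inside the gene spans given above, and that of Pfkfb3 overlaps its gene. Over longer lists of the same pathways, which include members, 17 of 24 glycolysis genes (70.8%) and 16 of 23 hypoxia-responsive genes (69.6%) had a match. The windows of 5 members are shown because their genes span the range of the results below. Adm and Pgk1 were at the lower end of the comparisons and Hk2 at the upper end. Each window shown lies wholly before its gene and holds at least 2 matches. The first window of Vegfa also lies wholly before its gene, holds no match and is not shown, so the printed windows overstate how often a match occurs. Capitals mark the searched letters, which read CACGT or CACGC where the match is on the other strand.
Adm, chr7:110627407-110627656, plus strand: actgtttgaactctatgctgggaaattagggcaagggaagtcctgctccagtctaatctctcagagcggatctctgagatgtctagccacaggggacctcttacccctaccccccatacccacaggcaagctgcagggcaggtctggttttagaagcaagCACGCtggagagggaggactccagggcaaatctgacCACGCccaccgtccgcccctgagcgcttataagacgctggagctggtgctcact
Slc2a1, chr4:119108495-119108744, plus strand: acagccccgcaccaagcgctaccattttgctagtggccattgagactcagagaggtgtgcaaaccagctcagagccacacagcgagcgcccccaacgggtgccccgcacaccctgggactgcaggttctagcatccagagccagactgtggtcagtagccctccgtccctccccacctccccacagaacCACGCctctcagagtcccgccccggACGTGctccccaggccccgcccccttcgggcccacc
Pgk1, chrX:106186850-106187099, plus strand: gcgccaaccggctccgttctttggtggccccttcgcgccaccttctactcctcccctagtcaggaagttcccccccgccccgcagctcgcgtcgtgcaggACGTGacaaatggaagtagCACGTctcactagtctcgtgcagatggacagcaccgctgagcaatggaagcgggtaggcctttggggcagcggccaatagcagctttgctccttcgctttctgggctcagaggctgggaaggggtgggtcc
Bnip3, chr7:138909507-138909756, minus strand: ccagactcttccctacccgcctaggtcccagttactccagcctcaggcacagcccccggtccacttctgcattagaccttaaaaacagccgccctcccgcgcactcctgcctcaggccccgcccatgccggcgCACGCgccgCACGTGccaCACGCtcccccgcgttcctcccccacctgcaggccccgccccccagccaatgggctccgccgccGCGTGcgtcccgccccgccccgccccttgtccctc
Hk2, chr6:82774455-82774704, minus strand: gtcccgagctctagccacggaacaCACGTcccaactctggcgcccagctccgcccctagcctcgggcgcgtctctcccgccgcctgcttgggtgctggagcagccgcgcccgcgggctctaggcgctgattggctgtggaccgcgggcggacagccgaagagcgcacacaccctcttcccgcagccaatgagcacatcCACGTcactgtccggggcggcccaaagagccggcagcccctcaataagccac
Both Adm matches were GCGTG on the minus strand, and they began 90 and 54 bases before the gene start. Both Pgk1 matches were ACGTG, 150 and 131 bases before the start and on opposite strands. Both Hk2 matches were ACGTG on the strand opposite to the gene, 226 and 52 bases before the start. Bnip3 had 5 matches, of which 2 shared 1 CACGTG. Each match is a run of letters and was not measured as a bound site.

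The libraries held 6494 kept barcodes in the control, 16583 after photons, 15325 after protons, 9484 in 11-day mSGOs and 1402 in tissue. A barcode was kept with at least 200 detected genes, at most 5% of its unique molecular identifiers (UMIs) from mitochondrial genes, and no doublet call. Kept barcodes had a median of 899 to 1061 UMIs in the 7-day libraries, 3015 in 11-day mSGOs and 2381.5 in tissue, and the libraries summed to between 5928862 and 32037623 UMIs. Few kept barcodes of the 7-day and tissue libraries carried much of the nuclear RNA Malat1. Barcodes in which Malat1 made up 1% or more of the UMIs are called Malat1-rich below. They were 16.0% of the kept barcodes in the control, 9.50% of the photon library, 8.96% of the proton library and 11.3% of tissue, against 98.8% of 11-day mSGOs. Comparisons of the members between libraries are therefore given over kept barcodes and again over Malat1-rich ones, whose median depth was 5846, 4416, 5343, 3014 and 4171.5 UMIs in the same order, with tissue last. Deposited barcode sequences shared by 2 libraries numbered 33 to 98 a pair, and 0 to 6 a pair were Malat1-rich in both. The labelled tissues differed in their markers as summed over all marker genes of a type. The fresh tissue had 42854 CPM (counts per 1000000 UMIs) of pro-acinar or acinar markers and 21.9 CPM of basal duct markers, and the organoid libraries had 8.12 to 30.8 CPM and 3986 to 9579 CPM.

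The 10 genes together made up 0.811% of kept UMIs in the control, 0.699% after photons, 0.769% after protons, 0.170% in 11-day mSGOs and 0.0254% in tissue. Most of this sum came from Pgk1 and Aldoa. Levels are CPM of 3′ end counts, which are not divided by transcript length, and a summed level cannot tell fewer expressing cells from less RNA per cell.

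**Figure D1:**
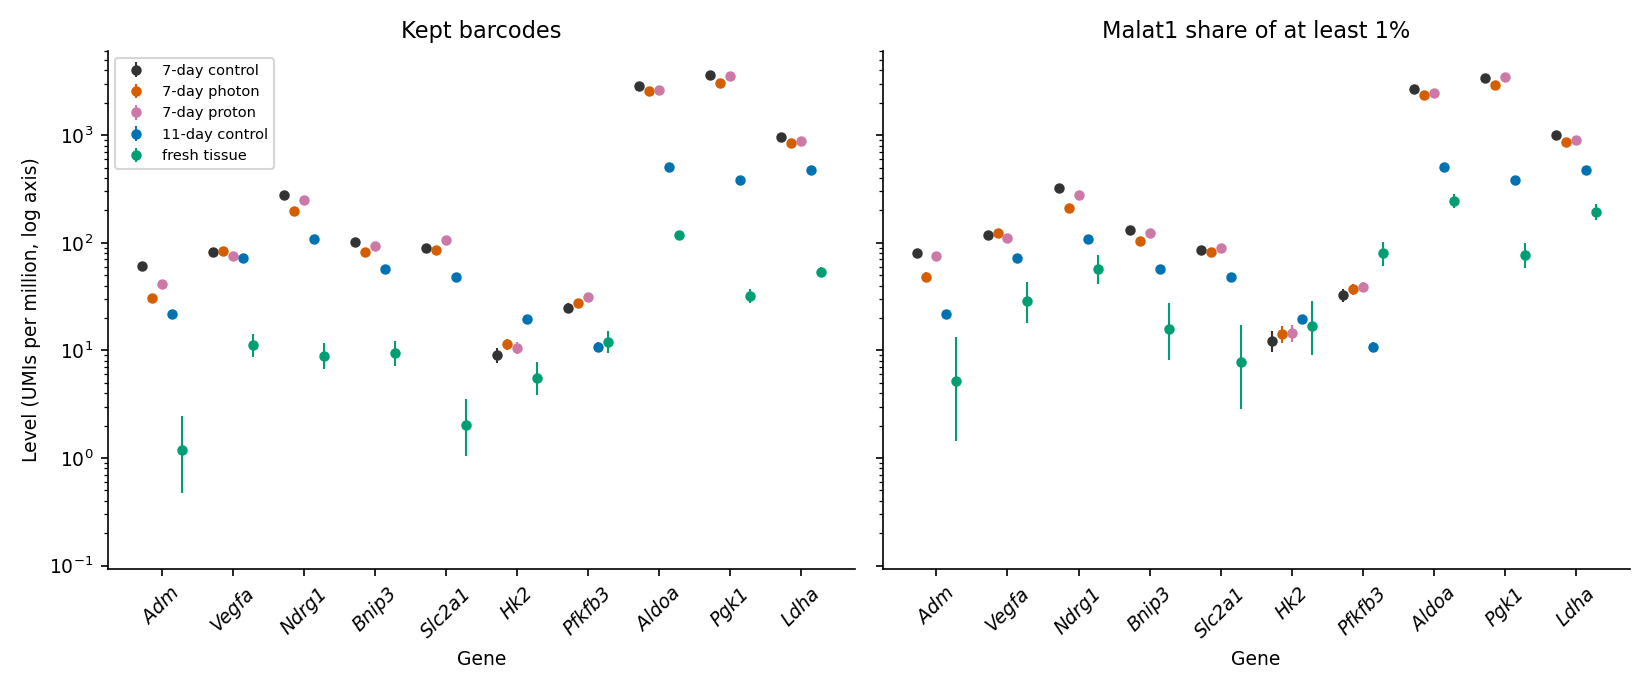
Level of each of the 10 genes (CPM, log axis) in the 5 libraries, over kept barcodes on the left and Malat1-rich barcodes on the right, with exact Poisson intervals as bars. Adm was highest in the 7-day control in both panels, whereas Hk2 was highest in 11-day mSGOs, and the tissue point was the lowest of the 5 for every gene except Pfkfb3 in the left panel.

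Adm, the peptide signal, had 60.5 CPM in the control, 30.9 after photons, 41.1 after protons, 21.6 in 11-day mSGOs and 1.18 in tissue. These rest on 958, 826, 1017, 692 and 7 UMIs. Vegfa, the other secreted signal, had 82.6, 83.7, 76.0, 72.4 and 11.1 CPM in the same order. Over kept barcodes the 4 organoid libraries were thus closer in Vegfa than in Adm, and both genes were low in tissue. Among Malat1-rich barcodes Vegfa had 119, 122, 111, 72.8 and 28.7 CPM.

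Slc2a1, through which glucose enters the cell, had 89.4 CPM in the control, 86.3 after photons, 106 after protons, 48.0 in 11-day mSGOs and 2.02 in tissue. Hk2, which traps the glucose, had 8.97, 11.4, 10.5, 19.5 and 5.57 CPM. Pfkfb3, which sets the pace at phosphofructokinase, had 24.7, 27.6, 31.3, 10.8 and 12.0 CPM. Hk2 was the single member with its highest kept level on day 11, and the intervals of Pfkfb3 in 11-day mSGOs (9.69 to 12.0 CPM) and in tissue (9.35 to 15.1 CPM) overlapped.

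Aldoa had 2862, 2554, 2623, 506 and 118 CPM, in the order control, photon, proton, 11-day mSGOs and tissue. Pgk1 had 3650, 3063, 3571, 385 and 32.2 CPM. Ldha had 956, 848, 888, 475 and 53.5 CPM. All 3 enzymes of the lower pathway thus had the order control, proton, photon, 11-day mSGOs, tissue, and the steps between the 7-day libraries were far smaller than the step to day 11. A second gene identifier also carries the symbol Aldoa and had at most 1 UMI in any library.

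Bnip3 had 102 CPM in the control, 82.8 after photons, 93.9 after protons, 57.2 in 11-day mSGOs and 9.45 in tissue. Ndrg1 had 277, 199, 250, 108 and 8.94 CPM. Both therefore had the same order of libraries as the lower glycolytic enzymes.

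In the 7-day libraries Adm was higher among Malat1-rich barcodes than among the rest. Adm reached 80.5 CPM in the control, 48.1 in the photon library and 75.6 in the proton library, against 45.4, 22.9 and 23.9 CPM in the other barcodes. Pgk1 went the other way, with 3394, 2899 and 3490 CPM in Malat1-rich barcodes and 3844, 3140 and 3611 CPM in the others. Malat1-rich barcodes held 57.2% of the Adm UMIs of the control library, 49.8% of those of the photon library and 61.1% of those of the proton library. The proton library was thus closer to the control in Adm among Malat1-rich barcodes, and closer to the photon library among the others.

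Irradiation was examined by setting each irradiated library against the same 7-day control, so the pair of comparisons shares its control counts. Ratios are log2 ratios of CPM with 1 CPM added to each level, and a gene was counted as higher or lower when it differed at least 1.5-fold. Over kept barcodes 1 of the 10 members was lower after photons, which was Adm, and none was higher. Of 4361 genes with at least 200 UMIs and at least 20 CPM in the higher library, 1.51% were lower and 2.59% were higher. After protons 0 of 10 members passed in either direction, against 1.47% of 4360 genes lower and 2.96% higher. The median ratio of the members was -0.17 after photons and -0.11 after protons, beside medians of 0.08 and 0.10 over all these genes.

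**Figure D2:**
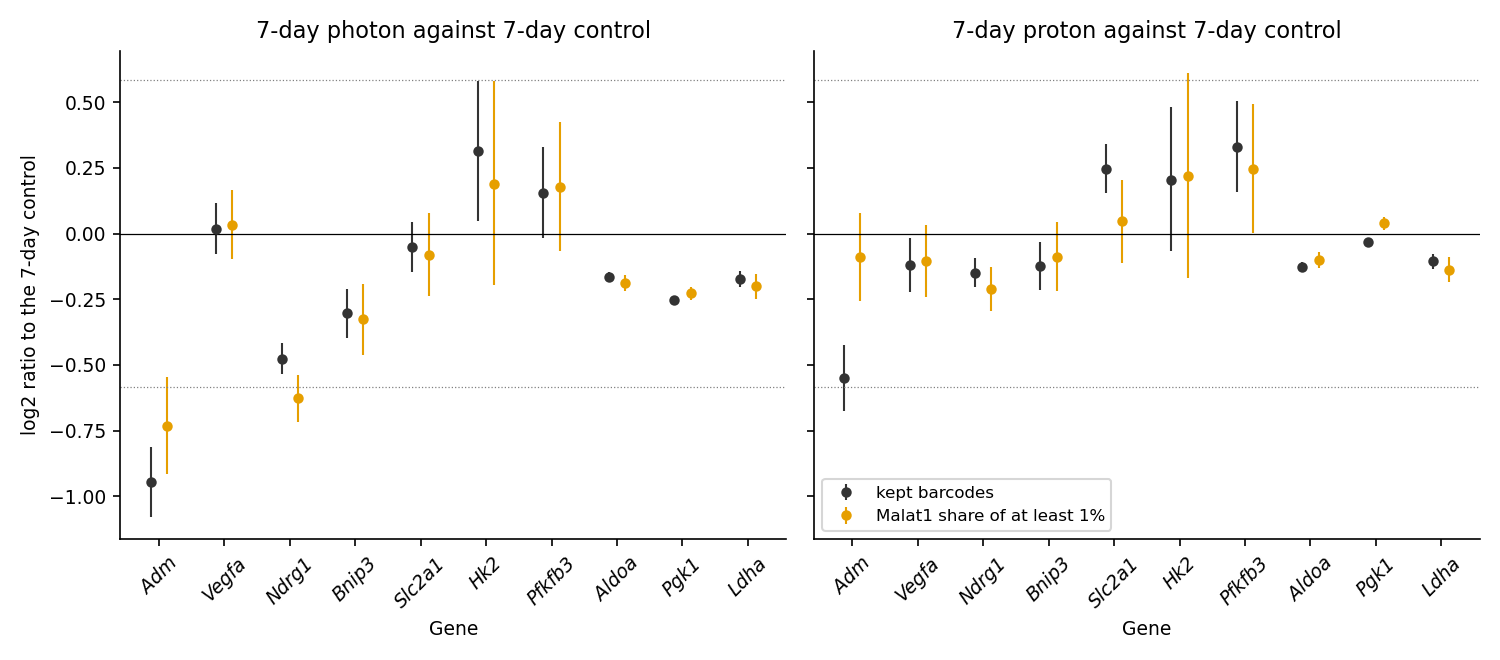
Log2 ratio of each gene to the 7-day control after photons (left) and protons (right), over kept barcodes (black) and Malat1-rich barcodes (orange); bars are 95% counting intervals, the solid line is 0 and dotted lines mark 1.5-fold. Adm had the lowest ratio after photons in both sets, and its proton ratio moved from -0.55 to -0.09 between them.

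Adm had a ratio of -0.95 after photons (interval -1.08 to -0.81), a 1.93-fold lower level, and 0.298% of all genes compared had a lower ratio. After protons the ratio was -0.55 (-0.67 to -0.42), or 1.46-fold. The Adm difference after protons was thus close to the 1.5-fold limit, and its call depended on the setting. It passed over every deposited barcode (-0.65), with doublets kept (-0.62), without the mitochondrial limit (-0.59), with at most 2500 genes (-0.65), with median-of-ratios scaling (-0.64) and with mitochondrial and ribosomal protein genes left out of the total (-0.62). Vegfa had ratios of 0.02 after photons and -0.12 after protons, and its photon interval of -0.08 to 0.12 included 0.

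Ndrg1 had the next lowest photon ratio, at -0.48 (-0.53 to -0.42), and a proton ratio of -0.15 (-0.20 to -0.09). Bnip3 had ratios of -0.30 and -0.12. Both ratios were therefore lower after photons than after protons. The intervals of Ndrg1 did not overlap, whereas those of Bnip3 did (-0.396 to -0.211 and -0.216 to -0.033). No ratio of the irradiated libraries to each other was computed.

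In glucose uptake and the early steps, Slc2a1 had ratios of -0.05 after photons and 0.25 (0.15 to 0.34) after protons. Hk2 had 0.31 (0.05 to 0.58) and 0.21 (-0.07 to 0.48), on 304 and 260 UMIs. Pfkfb3 had 0.15 (-0.02 to 0.33) and 0.33 (0.16 to 0.50). These 3 genes were the members at or above the middle of all genes after protons. The lower pathway had narrow intervals and small ratios. They were -0.16 and -0.13 for Aldoa, -0.25 and -0.03 for Pgk1, and -0.17 and -0.11 for Ldha, photons first in each pair.

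Among Malat1-rich barcodes, 2 of 10 members were lower after photons, namely Adm and Ndrg1, against 1.63% of 4796 genes. The Adm ratio was -0.73 (-0.92 to -0.55) and the Ndrg1 ratio was -0.63 (-0.72 to -0.54). After protons 0 of 10 were lower, against 1.92% of 4734 genes. There the Adm ratio was -0.09 (-0.26 to 0.08) and the Ndrg1 ratio was -0.21 (-0.30 to -0.13). Ndrg1 had a photon ratio below 0 in both barcode sets and passed 1.5-fold in the Malat1-rich one. In these same barcodes all 13 mitochondrially encoded genes had photon ratios above 0, and their sum was 14122 CPM in the control and 18430 CPM after photons. Nuclear-retained RNA went from 52506 to 70017 CPM. Both lists were also above the control after protons, where neither Adm nor Ndrg1 passed. In Malat1-rich barcodes without an Adm UMI, mitochondrially encoded genes had 14344 CPM in the control and 18895 CPM after protons. Nuclear-retained RNA had 51057.5 and 80139 CPM there. The part of either list in the Adm and Ndrg1 values was not tested.

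The Adm ratios also differed with the choice of barcodes by depth. With at least 2500 detected genes, the feature count named in the study's methods, the Adm ratios were -0.15 (-0.62 to 0.32) for photons and 0.13 (-0.32 to 0.60) for protons, on 72 control UMIs. With every barcode thinned to 1000 UMIs and shallower ones left out, it was -1.30 (-1.57 to -1.03) and -1.10 (-1.39 to -0.82). Ndrg1 kept its photon ratio, with -0.67 at 2500 genes or more and -0.53 when thinned. The part of depth and of barcodes without nuclear RNA in the Adm values was not tested.

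Most genes of the wider pathway did not pass 1.5-fold in either library. Of 22 glycolysis genes counted, 0 were higher and 0 lower after photons, with a median of -0.15, and 1 was lower after protons, which was Gapdh at -0.65 (304 against 193 CPM), with a median of -0.11. Of 30 hypoxia-responsive genes, 3 were lower and 1 higher after photons, and 1 was lower after protons, with medians of -0.13 and 0.04, beside the 1.51% and 1.47% of all genes that were lower. Among Malat1-rich barcodes, 2 glycolysis genes were lower after either kind of irradiation, and of 29 hypoxia-responsive genes 3 were lower and 1 higher with photons, and 1 was lower and 2 higher with protons. Of all genes there, 1.63% were lower and 3.15% higher with photons, and 1.92% and 2.83% with protons. The 3 lower after photons over kept barcodes were Ankrd37, Adm and Errfi1, the last an inhibitor of the EGF receptor that had 167 CPM in the control and 102 after photons. Ankrd37, a compact HIF target of ankyrin repeats, was the one gene of the glycolysis, hypoxia and oxygen-sensing lists that passed in both irradiated libraries, with 61.1 CPM in the control, 30.6 with photons (-0.98) and 34.4 with protons (-0.81). The gene that was higher after photons was Hilpda, which encodes a lipid droplet protein, at 13.7 and 21.8 CPM. None of 12 oxygen-sensing genes, which include Hif1a, Epas1 and the Egln hydroxylases, passed in either library.

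Lists of other inputs were read in the same way, by the genes that passed in both irradiated libraries. Pcx, the pyruvate carboxylase that feeds the mitochondrion, had 2.02 CPM in the control, 4.42 with photons and 3.84 with protons (0.84 and 0.68). Among genes induced by cell dissociation, Fos had 63.5, 124 and 128 CPM in that order, Hspa1a had ratios of -0.78 and -0.60, and Nr4a1 had 16.2, 8.24 and 7.63 CPM. Among glucocorticoid-responsive genes, Zbtb16 had 0.66 and 0.72. Of the 18 dissociation genes 2 were higher and 2 lower after photons, and 1 was higher and 3 lower after protons, so most did not pass, beside 2.59% and 1.51% of all genes for photons and 2.96% and 1.47% for protons, and their part in the Adm values was not tested.

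The Malat1-rich 7-day barcodes were clustered without using the members or the glycolysis and hypoxia lists, and Adm was still uneven between the clusters. Cluster 1 (920 barcodes) was led by Adm itself, the clock genes Nr1d1 and Ciart, and Txnip, and it stayed unnamed for want of cell type markers. It held 345 of the control's 548 Adm UMIs in Malat1-rich barcodes, 176 of the photon library's 411 and 342 of the proton library's 621. Its Adm level was 261 CPM in the control, 113 with photons and 185 with protons, which gives ratios of -1.20 (-1.47 to -0.94) and -0.49 (-0.71 to -0.27). In cluster 3 (774 barcodes, led by Sostdc1, Prkg2 and Aqp5) Adm was between 11.7 and 19.4 CPM. After thinning each barcode to 1000 UMIs, 17.6%, 11.2% and 15.5% of cluster 1 barcodes had an Adm UMI, and 1.02%, 0.938% and 1.67% of cluster 3 barcodes. Adm was thus highest in cluster 1 in all 3 libraries, and there its photon ratio passed 1.5-fold and its proton ratio did not. Adm had ratios above 0 in both irradiated libraries in cluster 3 (0.24 and 0.68), cluster 4 (1.44 and 1.56) and cluster 8 (0.72 and 0.99), and the lowest ones in cluster 5 (-1.57 and -1.67).

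**Figure D3:**
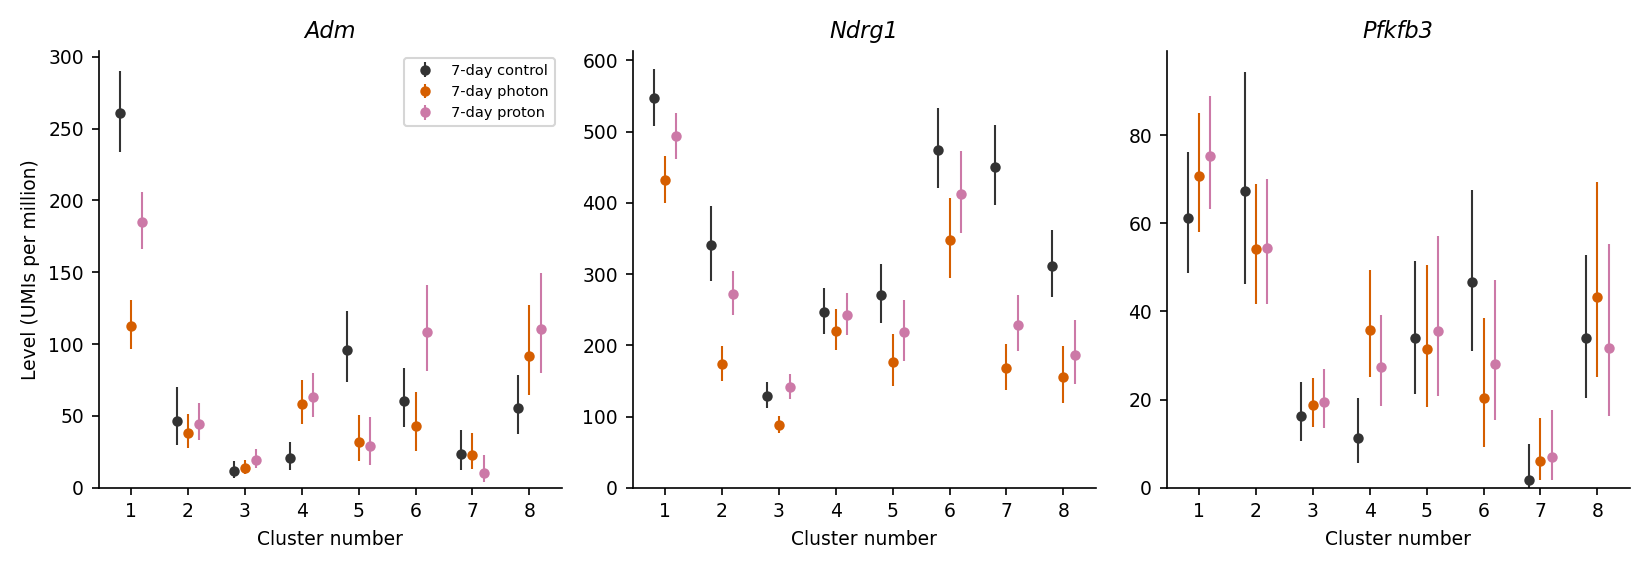
Level of Adm, Ndrg1 and Pfkfb3 (CPM, linear axes from 0) in clusters 1 to 8 of Malat1-rich 7-day barcodes, by library, with exact Poisson intervals. Adm in cluster 1 fell in the order control, proton, photon (261, 185 and 113 CPM), and Ndrg1 had its largest gap in cluster 7 (450, 229 and 168 CPM in that order).

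Ndrg1 was less tied to 1 cluster. It had 547 CPM in the control, 432 with photons and 493 with protons in cluster 1, and 474, 347 and 412 CPM in cluster 6. The widest gap was in cluster 7, which was cornified squamous-like by its markers, with 450, 168 and 229 CPM and ratios of -1.42 (-1.76 to -1.09) and -0.97 (-1.29 to -0.67). The photon ratio of Ndrg1 was below 0 in clusters 1 to 8, although the interval in cluster 4 (-0.43 to 0.11) included 0. Cluster 9 was left out of these statements because it held 9 control barcodes.

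Pfkfb3 in cluster 1 had 61.2, 70.6 and 75.2 CPM in the control, photon and proton libraries, above its level over all Malat1-rich barcodes (32.5, 36.9 and 38.7 CPM). Vegfa in cluster 1 had 178, 164 and 148 CPM, and 220, 179 and 162 CPM in cluster 2. Pgk1 in cluster 1 had 4107, 4004 and 4440 CPM. Adm, Pfkfb3, Ndrg1 and Pgk1 were thus all above their overall levels in cluster 1 of each library.

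The comparison of 11-day with 7-day control mSGOs addressed the change with time in culture, although the animals, the run and the gene list also differed and cannot be told apart from time. Over kept barcodes and the genes listed for both, 8 of 10 members were at least 1.5-fold lower on day 11 and 1 was higher. The background ran the other way, because 62.2% of 6624 genes were higher and 9.62% lower, and the median over all genes was 0.97. The members' median was -1.06, which is -2.03 relative to all genes. Among Malat1-rich barcodes, 9 of 10 were lower and 1 higher, against 10.3% of 6662 genes lower and 56.8% higher, and the median was -1.33. Other lists moved between the same libraries. Mitochondrially encoded genes summed to 8789 CPM on day 7 and 27178 CPM on day 11, with 13 of 13 higher. Integrated stress response genes summed to 366 and 1202 CPM, with 7 of 10 higher, which is near the 62.2% of all genes. Genes induced by cell dissociation were lower on day 11. In Malat1-rich barcodes without an Adm UMI they summed to 15349 CPM on day 7 and 4931 CPM on day 11. Granular or striated duct markers summed to 4.23 and 509 CPM, and basal duct markers to 8610 and 3986 CPM. Their part in the members' values was not tested.

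**Figure D4:**
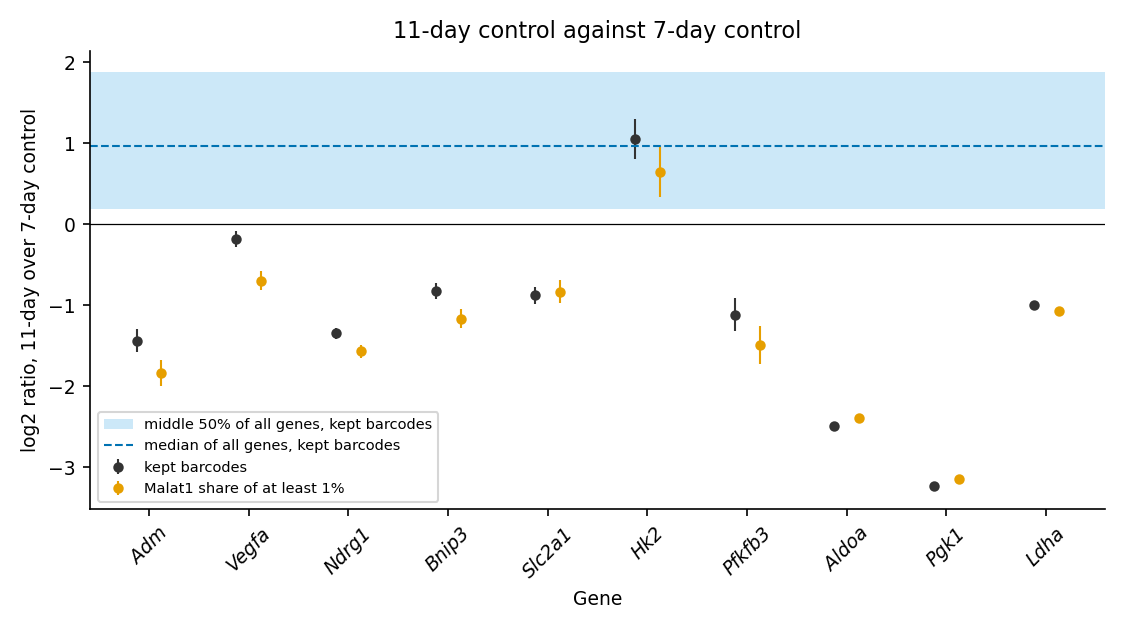
Log2 ratio of 11-day over 7-day control mSGOs for each gene, over kept barcodes (black) and Malat1-rich barcodes (orange), with counting intervals; the dashed line and band are the median (0.97) and the middle 50% (0.19 to 1.89) of all genes over kept barcodes. Every member except Hk2 lay below the band.

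Pgk1 and Aldoa had the lowest ratios of the 10 genes. Pgk1 went from 3650 to 387 CPM over the shared genes, a ratio of -3.23 (-3.26 to -3.21) or 9.41-fold, and 0.438% of all genes had a lower ratio. Aldoa went from 2862 to 509 CPM, at -2.49 (-2.52 to -2.46). Ldha went from 956 to 477 CPM, with an interval of -1.03 to -0.97.

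The early steps did not share 1 direction. Slc2a1 had a ratio of -0.88 (-0.98 to -0.77) and Pfkfb3 had -1.12 (-1.32 to -0.92). Hk2 went up from 8.98 to 19.6 CPM, a ratio of 1.05 (0.80 to 1.29), which is 0.08 relative to all genes, and 0.64 (0.33 to 0.96) among Malat1-rich barcodes, which is -0.11 relative to them. Hk2 was therefore higher on day 11 on the CPM scale and in the middle of all genes by rank, with 52.3% of genes below it.

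The signals were split as well. Adm had a ratio of -1.44 (-1.58 to -1.30), and -1.83 (-1.99 to -1.67) among Malat1-rich barcodes. Vegfa had -0.18 (-0.28 to -0.08) and -0.70 (-0.81 to -0.58). Ndrg1 had -1.35 and -1.57, and Bnip3 had -0.82 and -1.17. Vegfa was the member whose count as lower depended on the barcode set.

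Of 23 glycolysis genes counted, 13 were lower and 6 higher on day 11, with a median of -0.78. The lower ones included Gpi1, Pkm, Pgam1, Gapdh and Tpi1, and the highest was Ldhb, the lactate dehydrogenase subunit of oxidative tissues, which went from 23.1 to 98.1 CPM (2.04). Of 30 hypoxia-responsive genes 16 were lower and 7 higher, with a median of -0.73. Across the glycolysis, hypoxia and oxygen-sensing lists the lowest 3 were Ankrd37 (61.2 to 4.96 CPM, -3.38), Pgk1 and Ero1l, an oxidase of disulfide formation (638 to 99.6 CPM, -2.67). The highest 3 were Epas1, the HIF-2α subunit (3.73 to 30.3 CPM, 2.72), Lox, a collagen cross-linking oxidase (6.76 to 42.4 CPM, 2.48), and Cited2, a competitor of HIF for its coactivator (72.6 to 369 CPM, 2.33). Hif1a went from 92.9 to 325 CPM (1.80), and of the 12 oxygen-sensing genes 5 were higher and 2 lower, with a median of 0.23 against 0.97 over all genes. Among Malat1-rich barcodes the counts were 13 lower and 6 higher of 23 glycolysis genes, and 19 lower and 5 higher of 29 hypoxia-responsive genes. Of 12 genes that take pyruvate to the mitochondrion 8 were higher and 0 lower, with a median of 0.69, which is below the median of all genes.

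Clusters of 11-day mSGOs also differed in the members. Adm was highest in cluster 2, at 41.3 CPM, and between 4.59 and 26.6 CPM in clusters 1 and 3 to 8. Cluster 6, led by Acta2 and Igfbp2, had the highest Bnip3 (98.7 CPM), Slc2a1 (86.1 CPM) and Vegfa (116 CPM). Cluster 2 also had the highest Ndrg1, at 183 CPM, with 173 CPM in cluster 6.

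Fresh tissue had all 10 members at least 1.5-fold lower than the 7-day control. Here 86.5% of 4257 genes were lower too and 6.23% were higher, with a median of -1.78 over all genes. The members' median was -4.36, or -2.58 relative to all genes. In the 158 Malat1-rich tissue barcodes, 8 of 10 were lower and 1 higher, against 44.3% of 3870 genes lower and 16.0% higher. Their median was -2.73, and that of all genes was -0.43.

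Pgk1 was again the lowest member, at 32.2 CPM in tissue and a ratio of -6.78 (-6.99 to -6.58), or 110-fold. Slc2a1 had -4.90 (-5.47 to -4.31) on 12 tissue UMIs, Adm had -4.82 (-5.39 to -4.16) on 7, and Ndrg1 had -4.81 on 53. Pfkfb3 and Hk2 were closest to the control, at -0.99 (-1.34 to -0.64) and -0.60 (-1.10 to -0.12). Both changed sign among Malat1-rich barcodes, with 1.27 (0.84 to 1.68) for Pfkfb3 and 0.45 (-0.45 to 1.26) for Hk2. These 2 were also the members above the median of all genes in both sets. Of 22 glycolysis genes 20 were lower and 1 higher in tissue, and of 29 hypoxia-responsive genes 29 were lower. Of all genes 86.5% were lower and 6.23% higher, so the glycolysis count was near this share. Among Malat1-rich barcodes 15 of 22 glycolysis genes were lower and 3 higher, and 26 of 29 hypoxia-responsive genes were lower. There 44.3% of all genes were lower and 16.0% higher. The lowest 3 of the pathway lists were Pgk1, Ero1l (8.26 CPM, -6.11) and P4ha2, a collagen prolyl hydroxylase (1.18 CPM, -5.85). The highest 3 were Epas1 (20.2 CPM, 2.17), Ldhb (47.9 CPM, 1.02) and Pfkfb4, a relative of Pfkfb3 (1.86 CPM, 0.55).

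In tissue, Aldoa, Pgk1 and Ldha had UMIs in all 10 clusters, while Pfkfb3 and Ndrg1 were high in few of them. Pfkfb3 had 113 CPM in cluster 8 (64 barcodes, endothelial-like) and 108 CPM in cluster 10 (48 barcodes, unnamed, led by S100a8 and Retnlg), on 26 and 35 of its 71 UMIs. Ndrg1 had 170 CPM in cluster 8, on 39 of its 53 UMIs. Vegfa had 130 CPM in cluster 9, which was led by the granzyme gene Gzmc, on 18 of 66 UMIs that lay in 5 of its 49 barcodes, against 8.20 CPM in the acinar-like cluster 4 and 11.1 CPM over the library. Hk2 had 30.9 CPM in cluster 10, on 10 UMIs, and 7.76 CPM in cluster 4. Adm had at most 3 UMIs in any cluster. Endothelial markers (7 of 7 detected) summed to 396 CPM in tissue and 2398 CPM in its Malat1-rich barcodes, and to 8.27 to 17.8 CPM in the organoid libraries. Macrophage markers (8 of 8) summed to 4158 and 18109 CPM in tissue and to 4.25 to 26.3 CPM in the organoid libraries. In Malat1-rich tissue barcodes 14 of 18 dissociation genes were also higher than in the control. The part of these in the tissue values of Pfkfb3 and Ndrg1 was not tested.

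Over kept barcodes 6 of 9 receptor genes of the signals were highest in tissue and 3 in an organoid library, whereas among Malat1-rich barcodes all 9 were highest in tissue. The share of all genes that are highest in tissue was not computed for either set, so these counts have no background. Adrenomedullin acts through Calcrl paired with Ramp2 or Ramp3. Ramp2 had 0 UMIs in each of the 4 organoid libraries, where the floor taken for a count of 0 was 3 UMIs per library, and 220 UMIs in tissue (37.1 CPM), 159 of them in cluster 8 and 31 in cluster 7, which were both endothelial-like. Calcrl had 0 UMIs in the 3 7-day libraries, 96 in 11-day mSGOs and 57 in tissue (9.61 CPM). Over kept barcodes Ramp3 was highest after protons at 20.3 CPM, and Ramp1, the partner of Calcrl in the CGRP receptor, was highest in 11-day mSGOs at 40.3 CPM. Of the receptors of VEGF-A, Flt1 was at 80.1 CPM in tissue, Kdr at 50.9 and Nrp1 at 46.6, with 426, 276 and 221 of their UMIs in cluster 8. Flt4, a receptor of related ligands, was highest in tissue at 2.36 CPM. In the 7-day control Kdr had 0 UMIs and Flt1 had 1.58 CPM. Nrp2 was highest in 11-day mSGOs, at 32.5 CPM. In Malat1-rich tissue barcodes the 3 genes that were highest in an organoid library had 77.0 CPM (Ramp3), 56.2 CPM (Ramp1) and 57.5 CPM (Nrp2). So mSGOs had RNA of both signals, while Ramp2 was not detected in them and Kdr had at most 2 UMIs in any organoid library.

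Co-detection asked whether the other 9 members were higher in barcodes that held an Adm UMI. It used Malat1-rich barcodes of at least 1000 UMIs, each thinned at random to 1000 UMIs so that deep barcodes were not favoured. After thinning 65 of 1003 control barcodes were Adm-positive (6.48%), 70 of 1506 after photons (4.65%), 85 of 1341 after protons (6.34%) and 234 of 9235 in 11-day mSGOs (2.53%). No cell type certain to lack Adm was available as a background for these shares. The members' median ratio of Adm-positive over Adm-negative barcodes was 0.19, 0.36, 0.32 and 0.19 in that order, beside medians over all genes of -0.17, -0.04, -0.10 and 0.00. At least 1.5-fold higher in this 1 random draw were 4 of 9 members in the control (Hk2 among them, on 2 UMIs), 3 after photons, 2 after protons and 0 in 11-day mSGOs, and lower were 0, 0, 1 and 1, the last 2 on 0 and 1 UMIs. Among all genes with at least 100 thinned UMIs, 5.52%, 7.87%, 5.54% and 8.46% were higher and 25.1%, 18.2%, 20.7% and 13.3% lower, and Pfkfb3 and Hk2 had fewer UMIs than this minimum in all 3 7-day libraries.

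Because few UMIs remain in the positive barcodes, the thinning was repeated 20 times and the ratios of the mean levels are given. Ndrg1 had 618 CPM in control positives and 335 in negatives, 446 and 207 after photons, 500 and 273 after protons, and 153 and 111 in 11-day mSGOs. These give ratios of 0.88, 1.10, 0.87 and 0.46, and the ratio was above 0 in 20, 20, 20 and 19 of the 20 draws. Pfkfb3 had 89.6 and 35.6 CPM in control positives and negatives, with ratios of 1.31 in the control, 1.04 after photons, 1.03 after protons and 0.09 in 11-day mSGOs. Its single draws ran from -0.95 to 2.43 in the control and from -3.57 to 1.52 in 11-day mSGOs, on means of 6.2 and 2.4 UMIs in positive barcodes. Ndrg1 was thus higher in Adm-positive barcodes of each 7-day library in each of these draws, and Pfkfb3 was higher there on average with wide spread. All draws thin the same barcodes, so their range shows the spread from thinning only. Over the 20 draws Ndrg1 and Pfkfb3 passed 1.5-fold in the control, and with photons and protons Bnip3 passed as well. The share of all genes that passed over the 20 draws was not computed, so these calls have no background. In single draws at other settings Ndrg1 had -0.056 in the control with a Malat1 share of 0.5% or more and -0.031 with photons at 500 UMIs.

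Bnip3 had ratios of 0.45, 0.65, 0.63 and 0.26, and Vegfa had 0.36, 0.41, 0.27 and 0.11, in the order control, photon, proton and 11-day mSGOs. The glycolytic enzymes were flatter. Pgk1 had 0.17, 0.34, 0.30 and 0.00, Aldoa had 0.09, 0.33, 0.26 and 0.23, and Ldha had -0.06, 0.31, 0.14 and -0.20. Slc2a1 had 0.14, 0.34, 0.04 and -0.03. Hk2 averaged under 2 UMIs in the positive barcodes of each 7-day library, and no ratio is read from it.

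**Figure D5:**
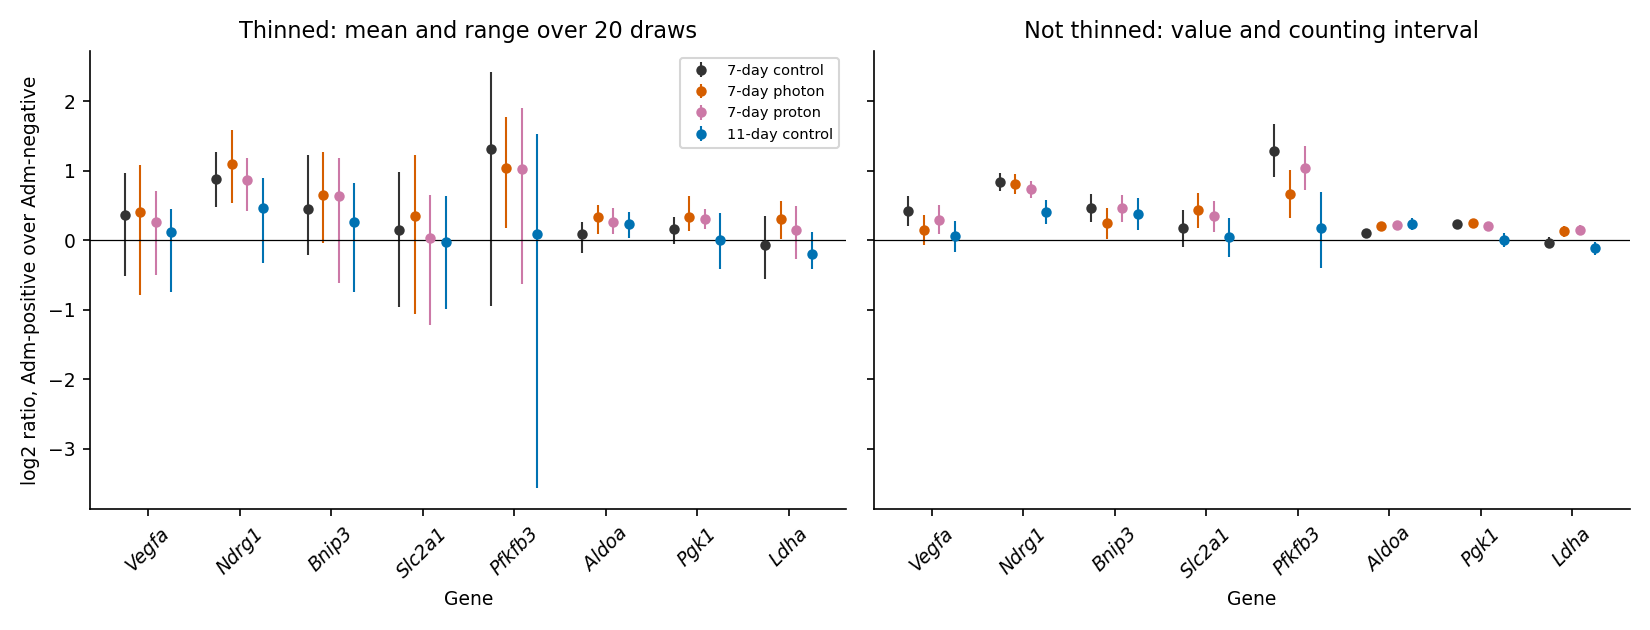
Log2 ratio of Adm-positive over Adm-negative barcodes for 8 members in the 4 organoid libraries; on the left barcodes thinned to 1000 UMIs, with the mean level ratio and the range over 20 draws, and on the right all UMIs with counting intervals. Ndrg1 and Pfkfb3 had the highest 7-day ratios in both panels, and the 11-day points lay nearer 0 for both. The bars on the left show the spread from thinning only.

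Without thinning, 223 control, 253 photon, 293 proton and 631 11-day barcodes were Adm-positive. Pfkfb3 had ratios of 1.29 (0.90 to 1.67 in the control), 0.67, 1.04 and 0.17, and Ndrg1 had 0.84 (0.71 to 0.96 in the control), 0.81, 0.73 and 0.41. These were the 2 of 9 members at least 1.5-fold higher in each 7-day library, and 0 of 9 were in 11-day mSGOs, while Hk2 with photons (-0.63) was the one member lower. Of all genes 1.19%, 1.26%, 0.962% and 0.975% were higher and 9.36%, 3.92%, 5.06% and 2.32% lower. The 7-day positive barcodes were deeper here, with median UMIs of 6920 against 5482.5 in the control, 6317 against 3925 with photons and 6721 against 4794 with protons, whereas the 11-day medians were 2987 and 3015. Their mitochondrial share was lower, at 1.22% against 1.47% in the control, 1.45% against 2.08% with photons and 1.43% against 1.93% with protons. The part of these differences in the ratios was not tested.

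The genes most like Adm were taken as the 12 non-members with the highest smallest ratio over the 4 organoid libraries, among 295 genes with at least 20 thinned UMIs in the positive barcodes of each. They were Btg2, Cebpd, Bri3, Errfi1, Tsc22d3, Klf6, Kif5b, Txnl1, Rab10, Eif3k, Bnip3l and Jund. Errfi1 had ratios of 1.77 in the control, 1.07 after photons, 1.15 after protons and 0.24 in 11-day mSGOs. Tsc22d3, a classical glucocorticoid-induced gene, had 1.30, 1.05, 0.40 and 0.18, and Btg2, an antiproliferative early response gene, had 0.93, 0.45, 0.74 and 0.40. Bnip3l, the close relative of Bnip3, had 0.15, 0.11, 0.13 and 0.27. These ratios come from 1 draw, and the intervals of Bnip3l, Kif5b, Txnl1 and Jund included 0 in all 4 libraries (-0.46 to 0.70 for Bnip3l in the control). The least like Adm, among 4268 genes, were Ppbp, Ltv1, Prkg2, Sprr2d and Eef1e1. Apart from Sprr2d they had at most 3 UMIs in the positive barcodes of any library. The intervals of Ppbp, Ltv1 and Prkg2 included 0 in each 7-day library, and those of Eef1e1 in all 4 libraries. Prkg2, a leading gene of cluster 3, had 1, 2, 3 and 1 UMIs in the positive barcodes.

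Pairs of members were counted in the same thinned barcodes, against the number expected if the genes were spread independently. Of the pairs with at least 5 expected barcodes, 5 of 36 in the control, 2 of 37 after photons, 3 of 38 after protons and 7 of 42 in 11-day mSGOs had an interval above 1, and 0 had one below 1. Pairs of other genes were not counted, so whether these shares exceed those of any genes is not known. Adm and Ndrg1 were together in 31 control barcodes against 16.7 expected, a ratio of 1.85 (1.26 to 2.63), in 21 photon barcodes against 12.2 (1.72, 1.07 to 2.64) and in 31 proton barcodes against 18.1 (1.72, 1.17 to 2.44). Pfkfb3 and Ndrg1 were together in 20 control barcodes against 9.52 expected (2.10, 1.28 to 3.25) and in 27 proton barcodes against 14.9 (1.81, 1.20 to 2.64), but in 16 photon barcodes against 9.39 (1.70, 0.97 to 2.77). In 11-day mSGOs the intervals of both pairs included 1, with 27 barcodes against 23.9 for Adm and Ndrg1 and 11 against 10.6 for Pfkfb3 and Ndrg1. In 11-day mSGOs, among pairs with an interval above 1, the highest ratio was that of Bnip3 and Ndrg1, in 85 barcodes against 53.5 (1.59, 1.27 to 1.97). Ratios of pairs with Pgk1 or Aldoa are held near 1 in the 7-day libraries because most barcodes had a UMI of these genes, so a median over pairs says little. Of the 10 7-day pairs with an interval above 1, 7 included Ndrg1, which likewise has no background from other genes.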

How the data were processed

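The deposited values were UMI counts per gene and barcode, made by the authors with the 10x Genomics pipeline and not normalised. The submitters' processing notes name Cell Ranger 5.0 and mm10, the file headers name other versions, and the study's methods name GRCm39, so the build is uncertain. Gene positions and promoters came from RefSeq tables of GRCm38.p6 and were not joined to reads. Barcodes were kept with at least 200 genes, at most 5% mitochondrial UMIs and no doublet call (Scrublet in scanpy 1.11.5; where it marked under 0.5% of barcodes, the highest scores at 0.8% per 1000 barcodes). Doublets removed numbered 378, 1701, 2559, 855 and 16 in the control, photon, proton, 11-day and tissue libraries. Counts were summed per library and scaled to CPM with Python 3.11.15, NumPy 2.4.6, SciPy 1.17.1 and pandas 2.3.3. Figures used matplotlib 3.10.9.

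Ratios had 1 CPM added, with conditional exact binomial intervals; levels had exact Poisson and shares Clopper-Pearson intervals, all at 95%. Shares of all genes used genes with at least 200 UMIs and 20 CPM (100 UMIs when thinned), and lists used genes with at least 10 UMIs. Clusters (Leiden, leidenalg 0.10.2, 2000 variable genes) were named only from 3 or more markers. The members and lists were chosen with earlier results of these data known. Named genes were the members, list genes past 1.5-fold the same way in both irradiated libraries, the 3 highest and 3 lowest pathway genes for day 11 and tissue, receptors where highest, and the 12 most and 5 least like Adm. Gapdh, Errfi1, Hilpda, Hif1a and the other glycolysis genes of day 11 were named after their values were seen. The scripts were tested on simulated data. With 1 library per group there was no test.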

Additional observations from a re-analysis of the deposited data

Results flagged for a closer look

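Adm and Pfkfb3 differed from the control in opposite directions in different 7-day clusters, at least 1.5-fold in both irradiated libraries. The difference between clusters was not tested, and each cluster value rests on 9 to 69 UMIs. In cluster 4, led by Cxcl17 and Lcn2, Adm had 20.7 CPM in the control, 58.1 with photons and 63.0 with protons, which are log2 ratios of 1.44 and 1.56. In the cycling-like cluster 8 it had 55.3, 91.8 and 111 CPM, with ratios of 0.72 and 0.99, of which the photon interval (-0.0023 to 1.45) included 0. In cluster 5, led by Pyy and Cxcl10, it had 95.9, 31.6 and 29.4 CPM, with ratios of -1.57 and -1.67. Pfkfb3 had 11.4, 35.8 and 27.4 CPM in cluster 4, with ratios of 1.57 and 1.20. In cluster 6, led by Lmo7 and Dsg3, it had 46.8, 20.3 and 28.0 CPM, with ratios of -1.16 and -0.72, of which the proton interval (-1.72 to 0.23) included 0.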

How the results depend on the processing

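No paired analysis was possible because each group had 1 library, and no replicate could be left out. Of 44 member medians between libraries under other settings, 27 stayed within the counting interval of the reported value and 17 did not, whereas the intervals of the medians by Adm status were too wide to show stability (-0.61 to 0.96 in the control). The proton median was the one between libraries that changed sign. The photon median of -0.17 was -0.19 in Malat1-rich barcodes, -0.25 with median-of-ratios scaling, -0.22 with mitochondrial and ribosomal protein genes left out of the total, and -0.21 when thinned. The proton median of -0.11 was 0.016 at 2500 genes or more, -0.20 with median-of-ratios scaling and -0.18 with the reduced total. The day-11 median of -1.06 was -1.33 in Malat1-rich barcodes, -0.88 with a pseudocount of 10 CPM, -1.71 with median-of-ratios scaling and -1.41 with the reduced total. The tissue median of -4.36 was -2.73 in Malat1-rich barcodes, -4.82 over every deposited barcode, -4.71 at 2500 genes or more, -2.85 with a pseudocount of 10 CPM, -2.91 with median-of-ratios scaling and -4.97 with the reduced total. In tissue Pfkfb3 turned to 1.27 in Malat1-rich barcodes and 0.41 with median-of-ratios scaling, and Hk2 to 0.45 and 0.72. By Adm status, control Hk2 turned to -0.33 without thinning, -0.097 at 2000 UMIs, -0.13 in another draw and -0.23 without the mitochondrial limit. Control Ndrg1 turned to -0.056 and photon Bnip3 to -0.045 with a Malat1 share of 0.5% or more, photon Ndrg1 to -0.031 at 500 UMIs, and photon Pfkfb3 to -0.34 without the mitochondrial limit. Day-11 Pfkfb3, on 1 UMI, turned to 0.17 without thinning, 0.43 at 2000 UMIs, 0.66 in another draw, 0.35 with a Malat1 share of 2% or more, 0.20 with levels from all UMIs and 0.086 over 20 draws. The cause was not tested. The last 2 settings were chosen after seeing the data, and requiring a second Adm UMI was not run because it left too few positive barcodes.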
